A study of Equus caballus with 37 samples.

Results

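The 150 genes described here were those of the horse blood transcriptome whose level was high in both groups of horses sampled in October and low in both groups sampled in spring. They were chosen by their measured levels from 26991 genes in the count table. A level is given in CPM, the counts of a gene scaled to a common library total, after adjusting the library by a factor of the trimmed mean of M-values (TMM) method, which compares libraries over the bulk of their genes. Of 12025 genes with enough counts to be tested, 7918 had a mean level of at least 3 on the log2 CPM scale and are called abundant genes below. Of these, 5617 had medians in the October groups (T0 and T3) that differed by no more than 0.4 on the log2 scale, and 5577 of them had identifiers that the published report of the study does not print. The score of a gene was the lower of the T0 and T3 medians minus the higher of the T1 and T2 medians, in log2 CPM, and the 150 genes with the highest scores were kept. They made up 2.69% of the eligible genes.

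RNA was sequenced from jugular blood of Arabian horses of the same stud, giving 37 libraries. T1 comprised 12 libraries (5 mares, 7 stallions) from 3-year-old horses in March, after the slow canter phase of training, and T2 comprised 11 libraries (4 mares, 7 stallions) from 3-year-olds in May, after intense gallop work and before the races. T3 comprised 8 libraries (4 mares, 4 stallions) from 3-year-olds in October, when the racing season ended. T0 comprised 6 libraries (2 mares, 4 stallions) from untrained horses, 5 of them aged 2.5 years and 1 labelled as 3 years. The sample labels give no month for T0, and October was taken from the sampling scheme of the study. The trained groups were described as repeated samples of 12 horses. The study states that some of the untrained horses did not enter training, so others of them may be among the trained horses. No label names the horse, so libraries of different periods were treated as independent. T0 and T3 shared the month and differed in training and mostly in age, and training and age cannot be told apart between them. From T1 to T3 the month, the stage of training and the age of the horses all advanced together, and these too cannot be told apart.

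Blood RNA comes from white blood cells of several lineages, from platelets and from red cells and their precursors. The level of a transcript in whole blood reflects which of these cells are present and how much of the transcript each holds. In such bulk samples fewer cells of a type and less RNA per cell cannot be told apart. Leukocyte numbers and activity are known to respond to exercise and to vary with season and age.

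Total counts ranged from 3810631 to 14694001 in T1 and from 6871395 to 14932603 in the other periods. The genes with at least 1 count numbered 11559 to 15208 in T1 and 13845 to 15795 elsewhere. TMM factors lay between 1.17 and 1.24 in T0, between 1.05 and 1.25 in T3, between 0.95 and 1.21 in T2 and between 0.41 and 1.14 in T1. The lowest October library (T3 replicate 4) had a factor of 1.05. In T1, 5 libraries (replicates 1, 2, 3, 4 and 11) had a factor under 0.9, and they stood apart from the other 32. The descriptions of T1 and of the variation within periods are given below with and without them. The study lists its sequencing pools by a sample numbering that the labels do not carry, so pools were not assigned to libraries and their part in the low factors was not tested. By period, T0 was spread over fewer pools than the trained groups, and 1 pool held T1 and T2 libraries only. The study also lists every T1 library and most T2 libraries with a smaller share of uniquely mapped reads than any October library. The part of pools and of mapping in the October and spring levels was not tested. The files pair no gene identifier with a symbol, and marker lists of blood cell types could therefore not be read. Among the genes whose identifiers the study prints are GZMH (ENSECAG00000008322), a granzyme of cytotoxic lymphocytes, and LY75 (ENSECAG00000022703), the endocytic receptor DEC-205 of antigen-presenting cells. GZMH was detected in every library, with a median level of 110.5 CPM in T1 and 81.9 CPM in T2, against 48.7 CPM in T3 and 33.5 CPM in T0. Its level was thus higher in spring, where the 150 genes were low, and between the October groups it was higher in T3. The study prints the symbol LY5 for ENSECAG00000022703, and LY75 was used here after the gene name that the study prints. LY75 met the rest of the rule and was left out of the set only because its identifier is printed. Its arrangement by period therefore follows from the rule. Its medians were 29.0 CPM in T1 and 46.6 CPM in T2, against 128.8 CPM in T3 and 98.0 CPM in T0. Across 37 libraries centred by period, the correlation of log2 CPM with the mean of the 150 genes was r = -0.486 for GZMH and 0.924 for LY75, and without the 5 libraries of low factor it was -0.454 and 0.903. LY75 met the same rule as the set, whose genes had a median correlation of 0.853 with the mean of the others. GZMH was picked after its values were seen. The 2 correlations are therefore a description and no reading of cell types. The part of the cell types that express these genes in the levels of the set was not tested.

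The median gene of the set was 2.10-fold higher in the lower October group than in the higher spring group, a score of 1.07 on the log2 scale. The highest score was 1.70 (3.24-fold) and the lowest was 0.90 (1.86-fold). There was no gap at the limit. The last 3 genes inside it scored 0.8994, 0.8979 and 0.8962, and the first 3 genes outside it scored 0.8959, 0.8957 and 0.8943. The opposite arrangement, low in both October groups by a margin at least as large as the lowest score, was found in 5 eligible genes, with a largest margin of 1.08.

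The middle level of the set was 33.7 CPM in T0 and 37.0 CPM in T3, against 9.61 CPM in T1 and 15.4 CPM in T2, each the median over the 150 genes of the period medians. These genes were of modest abundance. Their mean log2 CPM over all libraries ranged from 3.02 to 8.59, with a median of 4.02 against 5.20 for the abundant genes, and 120 of them (80%) lay under 5, against 45.4% of the abundant genes. In summed counts the set took 0.88% to 1.35% of a library in T0 and 0.65% to 1.37% in T3. It took 0.17% to 0.71% in T2 and 0.05% to 0.46% in T1.

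The mean log2 CPM of the 150 genes in each library showed the arrangement that the score fixed. In T0 the 6 libraries had a lowest value of 5.12, a median of 5.29 and a highest of 5.50. In T3 the 8 libraries had 4.70, 5.45 and 5.82. In T2 the 11 libraries had 2.90, 4.08 and 4.72. In T1 the 12 libraries had 2.08, 3.47 and 4.26, and the 7 with a factor of 0.9 or more had a lowest value of 3.44 and a median of 3.85. Every T0 library lay above every spring library, whereas the lowest T3 library (replicate 2, 4.70) fell just under the highest T2 library (replicate 4, 4.72). The score did not use the spread within a period. The untrained horses were closely alike, with a standard deviation (SD) of 0.13 (n = 6), against 0.44 in T3 (n = 8), 0.65 in T2 (n = 11) and 0.64 in T1 (n = 12). The SD in T1 was 0.28 (n = 7) without the 5 libraries of low factor. T3 was uneven, with replicates 1, 2 and 4 at 4.88, 4.70 and 4.98 and the other 5 libraries between 5.24 and 5.82.

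**Figure D1:**
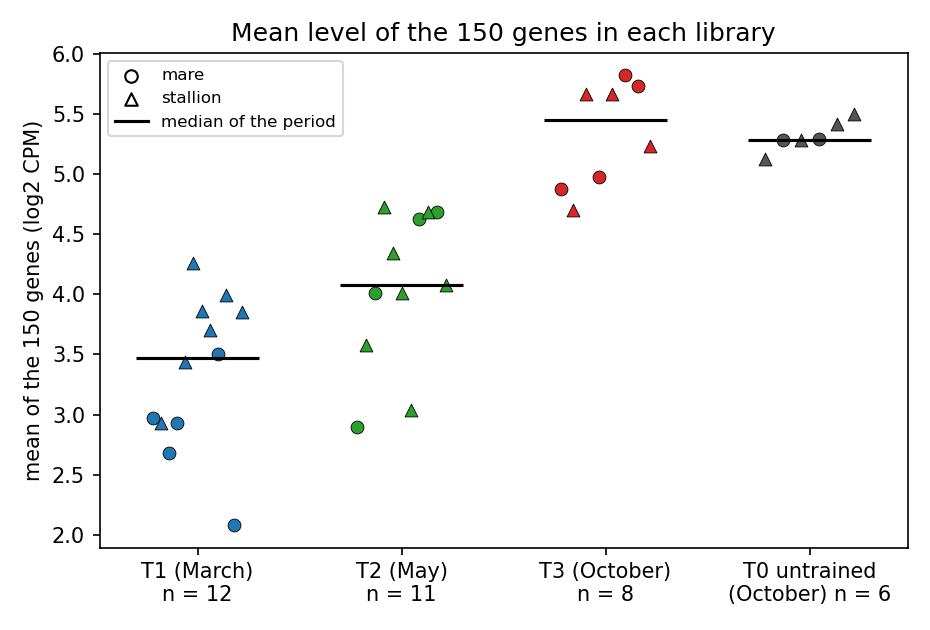
Mean log2 CPM of the 150 genes (vertical axis) in each of the 37 libraries, by period (horizontal axis). Each point is a library, circles are mares and triangles are stallions, and the line is the median of the period; the T0 points lie between 5.12 and 5.50, above every T1 and T2 point, and the lowest T3 point (4.70) overlaps the highest T2 point (4.72).

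Gene by gene, a minority of the set separated all October libraries from all spring libraries, or T3 from T2. Most of the set separated T0 from T2 and each October group from T1. Of the 150 genes, 23 had every October library above every spring library, beside 1.26% of the 12025 tested genes. Every T3 library exceeded every T2 library for 25 of the genes, beside 3.77% of all tested genes. Every T0 library exceeded every T2 library for 116 of them, beside 5.81%. Against T1 the counts were 121 for T3, beside 11.6%, and 140 for T0, beside 13.4%. Without the 5 libraries of low factor, 25 of the genes had every October library above every spring library (1.4% of all tested genes), and against T1 the counts were 127 for T3 (13%) and 144 for T0 (14.6%). The score used these contrasts, and the counts are given as a description. More genes of the set were separated from T2 in T0 (6 libraries) than in T3 (8 libraries), and the same held for all tested genes. The group sizes differ, and no difference between untrained and trained horses is read from these counts.

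The gene with the highest score, ENSECAG00000021202, had T0 libraries between 35.3 and 54.4 CPM with a median of 41.8 CPM. Its T3 libraries lay between 19.4 and 62.2 CPM with a median of 51.1 CPM. Its T2 libraries lay between 2.21 and 26.6 CPM with a median of 12.8 CPM, and its T1 libraries between 3.84 and 20.8 CPM with a median of 8.83 CPM. All T0 libraries were above all spring libraries, and the lowest T3 library (replicate 2) was within the range of T2. The fitted October minus spring difference was 1.91 on the log2 scale (SE 0.23, edgeR adjusted p = 2.7e-08), a contrast that the score had used.

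The gene with the next score, ENSECAG00000007441, had T0 libraries between 19.9 and 28.9 CPM with a median of 26.6 CPM. Its T3 libraries lay between 10.04 and 41.2 CPM with a median of 25.03 CPM. Its T2 libraries lay between 1.502 and 14.2 CPM with a median of 7.32 CPM, and its T1 libraries between 2.39 and 7.63 CPM with a median of 3.17 CPM. Again only T3 replicate 2 of the October libraries was within the range of the spring libraries. The fitted October minus spring difference was 2.22 (SE 0.24, edgeR adjusted p = 2.4e-09), the largest of the 150 genes in this fit. The files give neither gene a symbol, and no function is stated for them.

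Genes with known names come from outside the set. The published report prints 74 identifiers, all of which were tested, and 40 of these were abundant with T0 and T3 medians within 0.4. Of the 40, 9 (22.5%) scored at least as high as the lowest of the 150 genes, and 8 of the 9 are named there. They are no independent evidence of the pattern, since the study picked the printed genes on these samples. Had they been eligible, 141 of the 150 genes would have stayed in the set. PRR14L (ENSECAG00000022168) would have had the highest score of all, 2.26. Its T0 libraries lay between 22.7 and 35.9 CPM and its T3 libraries between 11.6 and 44.6 CPM, all above its T2 libraries (0.55 to 10.02 CPM) and its T1 libraries (2.23 to 8.06 CPM). ATP13A3 (ENSECAG00000006749), a P-type ATPase of polyamine transport, scored 1.62, with period medians of 64.1 CPM in T0 and 64.8 CPM in T3, against 13.9 CPM in T1 and 20.7 CPM in T2.

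The other named genes have roles in chromatin, RNA and membranes. MBTD1 (ENSECAG00000022700), a chromatin reader of methylated lysines, scored 1.29, with medians of 21.5, 5.78, 8.68 and 23.2 CPM in T0, T1, T2 and T3. LARP4 (ENSECAG00000012479), which binds the poly(A) tails of messenger RNA, scored 1.14, with medians of 19.7, 7.11, 8.82 and 20.5 CPM in the same order. LY75, whose medians are given above, scored 1.06. WDR7 (ENSECAG00000007050), a partner of the vacuolar proton pump, scored 1.02, and RBM27 (ENSECAG00000000883), an RNA-binding protein, scored 1.01. All of these had October minus spring differences between 1.17 and 2.48 on the log2 scale and were called higher in October by edgeR. The study lists ATP13A3, MBTD1, LARP4, WDR7 and LPGAT1 (described below) as higher in T3 than in T0. Here their fitted T3 minus T0 differences were 0.20, -0.03, -0.01, 0.20 and 0.12 (edgeR adjusted p from 0.45 to 0.99), and none was called. By qPCR the study found LARP4 and MBTD1 highest in untrained horses. The cause of the disagreement was not tested.

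LPGAT1 (ENSECAG00000013187), an acyltransferase of phospholipid synthesis, stood apart from the other named genes. It scored 0.97 by its medians, but its T1 libraries ranged from 7.17 to 119.7 CPM and its T2 libraries from 8.51 to 96.6 CPM, against 35.8 to 85.0 CPM in T0 and 29.7 to 112.3 CPM in T3. Of the spring libraries, 8 of 12 in T1 and 6 of 11 in T2 were below every October library, and the others reached October levels. Its fitted difference was 0.67 (SE 0.33, edgeR adjusted p = 0.072) and was not called. It was called without T1 replicate 9 (0.85), without T1 replicate 11 (0.76) or without T2 replicate 8 (0.79). It was also called with the replicate number as a block, where it was 1.45 (edgeR adjusted p = 0.00045). Same-numbered libraries can come from different horses, as replicate 4 was a mare in T1 and a stallion in T2. The fit with that block is therefore no paired analysis.

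**Figure D2:**
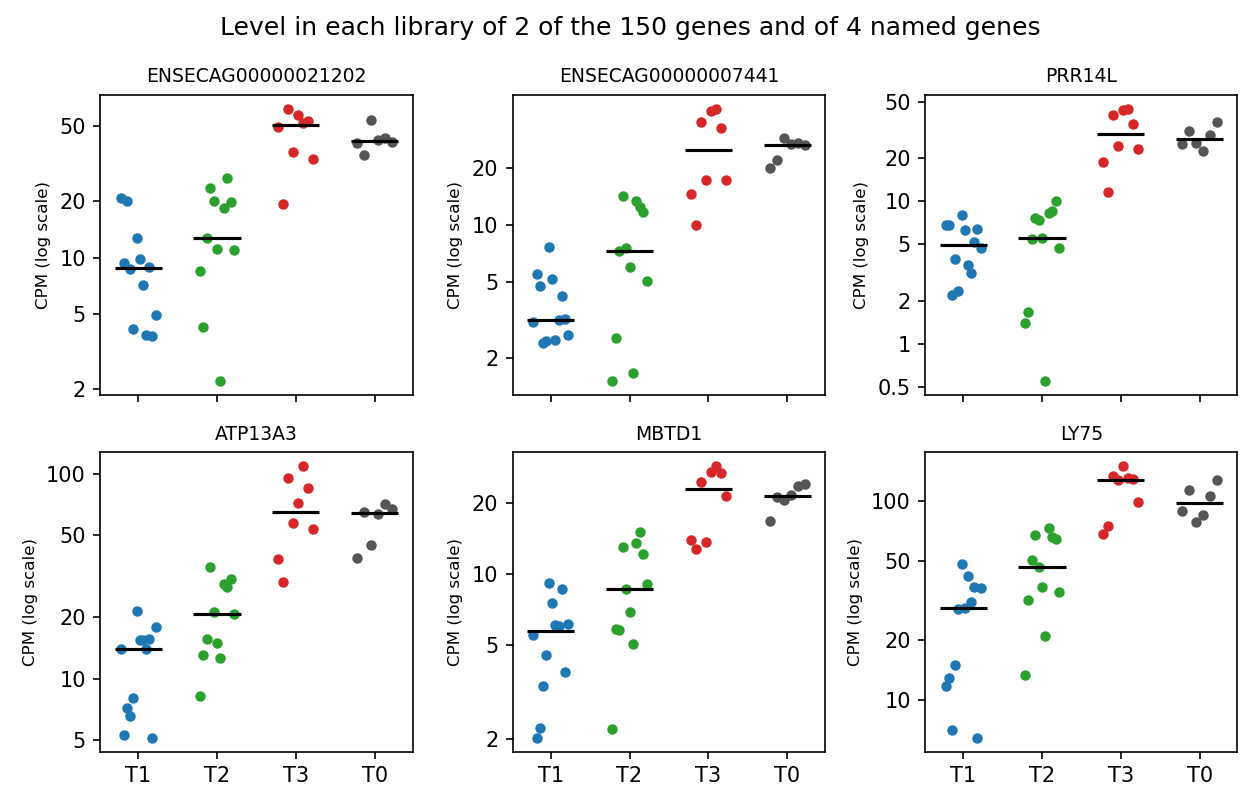
Level in CPM on a log scale (vertical axis) of 2 of the 150 genes and of 4 named genes from outside the set, in each library of T1, T2, T3 and T0 (horizontal axis); points are libraries and lines are period medians. PRR14L has no overlap between October and spring, and in ENSECAG00000021202 and ENSECAG00000007441 the lowest T3 library lies within the range of T2.

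Within spring the set was not level. The T2 median was above the T1 median in 148 of the 150 genes, against 49.5% of the abundant genes, and T1 was the lowest of the 4 period medians in 148. The T2 minus T1 difference of medians had a median of 0.62 on the log2 scale, from -0.10 to 1.49, and was at least 1 in 22 genes and under 0.2 in 13. Without the 5 libraries of low factor the T2 median was above the T1 median in 138 genes, against 46.9% of the abundant genes, T1 was the lowest median in 138, and the median difference was 0.35. Between the October groups, T3 had the higher median in 107 genes, with a median T3 minus T0 difference of 0.10. The rule bounded that difference and used the higher of the spring medians, and none of these counts is a test.

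In edgeR fits across all genes, called meant an adjusted p under 0.05 and at least a 1.3-fold change. October against spring called all 150 genes higher in October, beside a percentage of 29.5 of the 12025 tested genes called in that direction, and nothing is read from this count since the rule used the contrast. The fitted differences ran from 0.77 to 2.22 with a median of 1.48, against -0.01 for all tested genes. Without the libraries of low factor 148 were called higher, with a median of 1.31. In T0:T3 none of the 150 genes was called by edgeR or by DESeq2. In edgeR 19.6% of 11696 tested genes were called in either direction and 10.4% were called higher in T3. An unadjusted p under 0.05 was reached by 5 of the 150 genes with each tool, beside 4385 tested genes in edgeR and 4517 in DESeq2. The rule kept these differences small. With the log2 TMM factor as a covariate 6 of the 150 genes were called higher in T3, beside 10.3% of all tested genes. The T3 minus T0 differences ran from -0.63 to 0.46 with a median of 0.05.

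T1:T2 gave 63 of the 150 genes higher in T2 and none lower, beside 11.2% of 11188 tested genes called higher and 20.8% called lower. An unadjusted p under 0.05 was found in 109 of the 150 genes, beside 5476 of the 11188 tested genes. The median T2 minus T1 difference in this fit was 0.68. DESeq2 called 90. The count moved with the libraries that entered the fit. Without the 5 libraries with a TMM factor under 0.9 edgeR called none of the 150 genes and no gene of the whole table. The median difference was then 0.37, and 12 of the 150 genes had an unadjusted p under 0.05, beside 1444 of 11456 tested genes. With the log2 TMM factor as a covariate edgeR called none either, and the median was 0.15. In that fit 1 of the 150 genes had an unadjusted p under 0.05, beside 649 of 11188 tested genes. The count fell to 23, 26, 25 and 23 without T1 replicates 1, 2, 3 and 4, and to 15, 40, 21, 19 and 20 without T2 replicates 4, 5, 8, 9 and 10. It rose to 99 without T1 replicate 6 and to 108 and 97 without T2 replicates 1 and 7.

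The level of the set followed the TMM factor of the library within T1, T2 and T3, and other library measures as well in T1 and T3. In T1 the 5 libraries with a factor under 0.9 had a mean of the 150 genes from 2.08 to 2.97 log2 CPM, the 4 libraries from 0.9 to 1.05 had 3.44 to 3.85, and the 3 libraries of 1.05 or more had 3.86 to 4.26. In T2 the 3 libraries under 1.05 (replicates 1, 2 and 7) had 2.90 to 3.58, and the 8 libraries of 1.05 or more had 4.01 to 4.72. The ranges did not overlap within either period. The correlation of the mean of the 150 genes with the log2 TMM factor was r = 0.943 in T1 (n = 12), 0.936 in T2 (n = 11), 0.809 in T3 (n = 8) and -0.709 in T0 (n = 6), where the factors were nearly the same. In the 7 T1 libraries with a factor of 0.9 or more it was 0.909. With the log2 total counts the correlation was 0.512 in T1, -0.149 in T2, 0.858 in T3 and 0.565 in T0. With the number of genes detected it was 0.844, 0.156, 0.814 and 0.083 in the same order. With the share of counts in the 10 leading genes it was -0.896, 0.132, -0.337 and 0.555. The level and all of these measures come from the same counts, and the level itself was divided by the factor. The part of the TMM factor and of the other measures in the October and spring levels was not tested.

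The rule chose the genes for their October and spring medians in these same libraries, so the values at like factors are a description and no test. Among the 25 libraries with a factor of 1.05 or more, the mean of the 150 genes was 3.86 to 4.72 log2 CPM in the 11 spring libraries and 4.70 to 5.82 in the 14 October libraries. In these libraries every October value exceeded every spring value for 25 of the 150 genes, beside 1.48% of all tested genes. In edgeR, with the libraries under 1.05 left out, 148 of the 150 genes were called higher in October with a median difference of 1.08, beside 19.7% of 12266 tested genes. With the log2 TMM factor as a covariate in all 37 libraries 146 were called, with a median difference of 1.09, beside 17.1%. In both settings the median difference was smaller than the 1.48 of all libraries without the covariate.

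**Figure D3:**
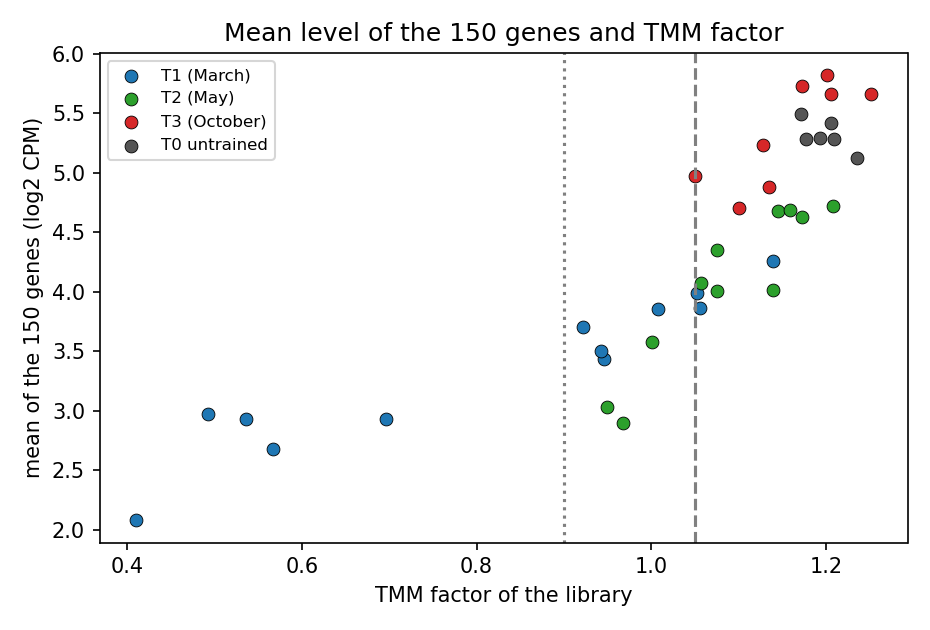
Mean log2 CPM of the 150 genes (vertical axis) against the TMM factor (horizontal axis) for each of the 37 libraries, coloured by period. The dotted line is at 0.9 and the dashed line at 1.05; the 5 T1 libraries left of the dotted line lie at 2.97 or lower, and right of the dashed line October libraries lie at 4.70 or higher and spring libraries at 4.72 or lower.

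The genes of the set also varied together between libraries of the same period, a property that the score did not use directly. The score kept only genes shifted in the same direction between spring and October, whereas pairs of abundant genes mix both directions. The comparison of the set with the abundant genes is therefore a description and no test. Across 37 libraries centred by period, the median correlation between pairs of the 150 genes was 0.712 (quartiles 0.539 and 0.82), against 0.01 (quartiles -0.407 and 0.431) between pairs of abundant genes. By period the median pairwise correlation was highest in T3 (0.904) and T2 (0.881), followed by T1 (0.62) and T0 (0.451), and the medians for the abundant genes were between -0.002 and 0.019. After a line on the log2 TMM factor was removed from each gene the median was 0.601, against 0.027. The first principal component held 68.7% of the within-period variance of the set and 54.3% of that of the abundant genes. Without the 5 libraries of low factor the median pairwise correlation of the set was 0.818, in T1 it was 0.584, and after the line was removed it was 0.58, with medians for the abundant genes between -0.004 and 0.002. The first component then held 73.9% for the set and 29.3% for the abundant genes. All of these pairs share their libraries and so the depth and the TMM factor of each.

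Of the 150 genes, 104 had a correlation over 0.8 with the mean of the others and 10 had a correlation under 0.5. The weakest, 0.103, belonged to the gene of rank 97. Its October levels were 59.1 to 79.0 CPM in T0 and 59.2 to 111.2 CPM in T3, and its spring levels were 27.1 to 81.9 CPM in T1 and 14.9 to 47.3 CPM in T2. For this gene T1 reached the October range, and T2 did not. With those of low factor left out its correlation with the others was 0.833, 131 of the 150 genes had a correlation over 0.8 and 4 had a correlation under 0.5.

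Members were also more variable than the abundant genes between libraries of the trained horses. The set was of lower level than the abundant genes, and the SDs were not compared at like levels. The median SD of a gene of the set was 0.78 log2 CPM in T1, 0.69 in T2 and 0.47 in T3, against 0.57, 0.31 and 0.22 for the abundant genes. In T1 without the 5 libraries of low factor the set had 0.37 and the abundant genes 0.26. In T0 the set had 0.18 and the abundant genes 0.20. Gene by gene, the correlation with the log2 TMM factor exceeded 0.8 for 76 of the 150 genes in T1 (25.4% of abundant genes), 122 in T2 (9.81%) and 54 in T3 (7.53%). In T0 it did so for 3 (3.06%), and in the 7 T1 libraries of higher factor for 60 (7.55%).

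A small group within the set went the other way in T1. In 11 of the 150 genes, the gene of rank 1 among them, the correlation with the log2 TMM factor in T1 was below 0, and in 4 it was below -0.5, whereas 46.8% of the abundant genes had a correlation below 0. All 11 had positive correlations in T2, with a median of 0.854, and in T3. In the 5 T1 libraries with a factor under 0.9 the mean of these 11 genes was 3.60 to 4.27 log2 CPM, against 1.93 to 2.88 for the other 139. In the 7 other T1 libraries it was 3.28 to 3.98, against 3.45 to 4.28 for the other 139. The 11 genes were nonetheless lower in T1 than in October, with medians over libraries of 5.17 in T0 and 5.38 in T3, against 3.72 in T1 and 3.96 in T2. In the 7 T1 libraries of higher factor 7 of the 150 genes had a correlation below 0, and 1 of these was among the 11. Which genes went the other way thus depended on the 5 libraries of low factor. They were picked by their values in T1, and no test was run on them.

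**Figure D4:**
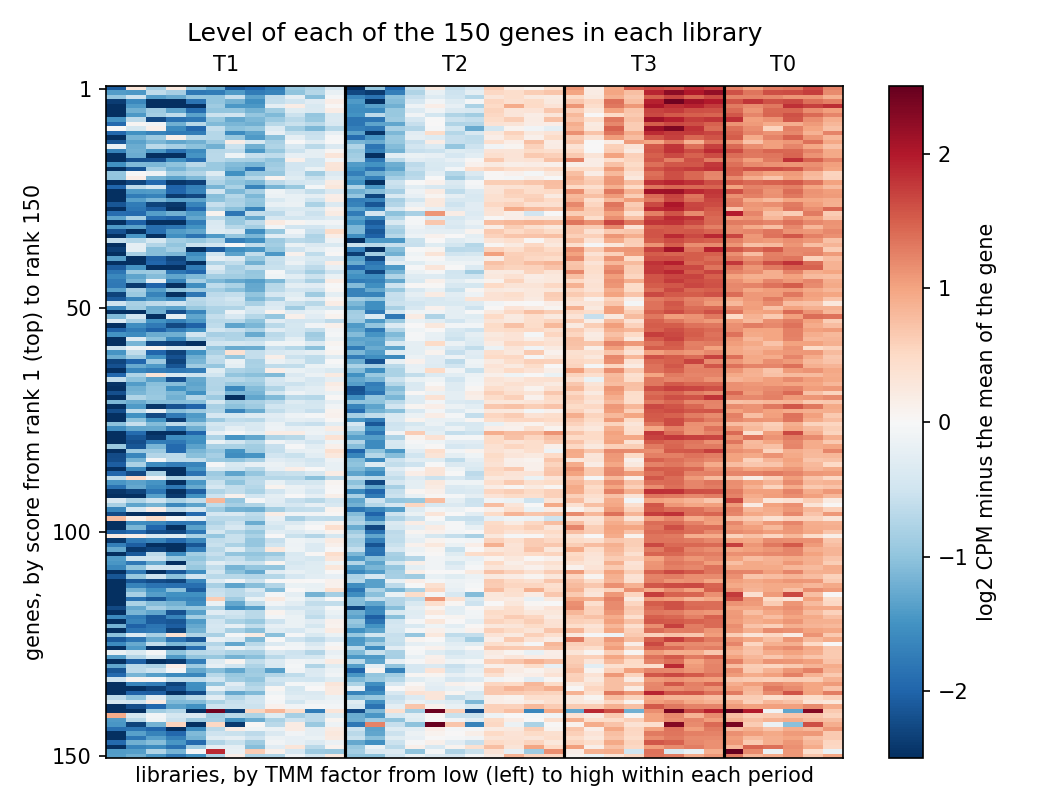
Log2 CPM of each of the 150 genes (rows, from rank 1 at the top) in each library (columns, by TMM factor within each period) minus the mean of the gene, with colours cut at 2.5 on either side. Blue is lower and red is higher; most rows are blue in T1 and red in T3 and T0, the left columns of T1 and T2 with the lowest TMM factors are the bluest, and some rows in the left columns of T1 are not blue.

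Sex was not used by the rule, and it was tested across all genes with period as a term. None of the 150 genes was called between mares and stallions by edgeR, beside 0.0333% of the 12025 tested genes (4 genes), and DESeq2 called none of the 150 either. An unadjusted p under 0.05 was reached by 4 of the 150 genes in edgeR and by 7 in DESeq2, beside 2009 and 2568 of the 12025 tested genes. The fitted mare minus stallion difference had a median of -0.21 on the log2 scale over the set and ran from -1.51 (SE 0.48, edgeR adjusted p = 0.3) to 0.19. The difference was positive in 17 genes of the set, beside 46.8% of all tested genes. Of the 4 periods the sexes lay furthest apart in T1. There the mean of the 150 genes was 2.83 ± 0.52 log2 CPM in mares (SD, n = 5) and 3.72 ± 0.43 in stallions (SD, n = 7), and the TMM factor was under 0.9 in 4 of the 5 mares and in 1 of the 7 stallions. In T2 the values were 4.06 ± 0.83 in mares (SD, n = 4) and 4.06 ± 0.60 in stallions (SD, n = 7). In T3 they were 5.35 ± 0.49 (SD, n = 4) and 5.31 ± 0.45 (SD, n = 4), and in T0 5.28 ± 0.005 (SD, n = 2) and 5.33 ± 0.16 (SD, n = 4). Without the 5 libraries of low TMM factor the median sex difference of the set was -0.01, with 69 genes positive (48.6% of all tested genes). With the log2 TMM factor as a covariate it was 0.05, with 97 genes positive (53.4% of all tested genes). Neither fit called a gene of the set. An unadjusted p under 0.05 was found in 1 and 3 of the 150 genes, beside 239 of 12027 and 419 of 12025 tested genes.

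The October against spring difference was also compared between the sexes. No gene of the set was called in the sex by season interaction by edgeR or DESeq2, and 1 of the 150 genes had an unadjusted p under 0.05 in edgeR. In the whole table edgeR called 0% of 12025 genes, with 760 at an unadjusted p under 0.05, and DESeq2 called 1 gene. The interaction had a median of 0.37 over the set (135 genes with a larger October rise in mares, beside 53.6% of all tested genes). It was 0.15 without the libraries under 0.9 and 0.04 with the log2 TMM factor as a covariate.

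The low levels in T1 limited how many of these genes could be followed in each library. The median over the 150 genes of the lowest count in any library was 6. A count under 6 in at least 1 library was found for 65 of the 150 genes, in each case in T1 libraries only. The authors' further tables are limited to the 7885 genes that no library counted fewer than 6 times. They contained 85 of the 150 genes (56.7%) and 89.5% of the abundant genes. In T1 replicate 11, the library with the smallest total (3810631) and the lowest TMM factor (0.41), 5 genes of the set had 0 counts, which allows a level of up to 1.92 CPM in that library (3 counts, counting error only). No gene of the set was at 0 counts in any other library.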

How the data were processed

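Blood RNA of 37 horse samples was sequenced and the authors trimmed the reads with Flexbar, aligned them with STAR to EquCab2.0 and estimated counts with RSEM on Ensembl annotation. The deposited values are estimated (expected) counts per gene, rounded to whole numbers by the authors. The full table was used, and the smaller tables, limited to genes that no library counted fewer than 6 times, served only to count genes.

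Counts were filtered by period (filterByExpr), scaled by TMM and given as CPM or as log2 CPM with a prior count of 2. Tests used the quasi-likelihood F-test of edgeR 4.0.16 in R 4.3.3 with Benjamini-Hochberg adjustment over all genes tested; DESeq2 1.42.0 was an alternative. T0:T3 and T1:T2 were fitted on their own libraries, the other contrasts on all 37. Scripts were tested on simulated data. No sample was dropped or imputed in the values reported unless stated, and no pair of libraries of a period agreed within sampling noise (lowest chi-square per degree of freedom 15.4). The labels tie no library to a horse or to the sequencing pools that the study lists under its own sample numbers. The p-values therefore measure the spread between libraries, and by the description of the study repeated samples of a horse are among them.

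The genes, the lists and the tests were chosen with earlier results of these data known. The genes named are the 2 with the highest scores, any called by sex or by sex and season (none was), and the printed genes that met the rest of the rule; of the latter, 1 without a symbol is given only as a count. Fixed lists of blood cell markers and pathways were not analysed, since 0 identifiers of the count table occur in the reference table. Sequences were not used for the same reason. GZMH was chosen after its values were seen. No column of per-sample values was left unused.

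Alternatives were size factors of the relative log expression (RLE) method, DESeq2, no filter on low counts, leaving out genes over 1% of counts, thinning to the smallest total, leaving out libraries with a TMM factor under 0.9, the log2 TMM factor as a covariate, the replicate number as a block, all libraries in the same fit, a sex term and each library left out in turn. For the choice of genes a tolerance of 0.2, the mean in place of the median and a prior count of 0.5 were tried. Leaving out libraries with a factor under 1.05, and repeating the descriptions without those under 0.9, were chosen after seeing the data.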

Additional observations from a re-analysis of the deposited data

How the results depend on the processing

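October against spring called 146 to 150 of the 150 genes higher under each alternative. Medians near 0 changed sign in contrasts where the reported fit called none of the 150 genes. The T3 minus T0 median of 0.05 was -0.03 with the replicate number as a block. The sex median of -0.21 was 0.04 without libraries under a factor of 1.05 and 0.05 with the log2 TMM factor as a covariate. With the covariate the calls over all genes fell from 3550 to 2053 higher and from 3496 to 1446 lower, and without libraries under 1.05 to 1879 lower. In T0:T3 the covariate called 6 of the 150 genes higher, beside 10.3% of 11696 genes, against 0 without it. Leaving out a library gave 0 to 3, with 3 without T3 replicate 2 and 1 without T3 replicate 4. Fitting all 37 libraries together gave 440 genes higher and 277 lower in T0:T3, against 1218 and 1077. In T1:T2 the 63 genes of the set became 35 with no filter, 105 with all libraries in the same fit, and 0 without libraries under 0.9, with the covariate or without libraries under 1.05; leaving out a library gave 15 to 108. Over all genes the 1258 higher in T2 became 805 with no filter, 2191 with all libraries and 0 in the same 3 settings, which also took the 2326 lower to 0, and leaving out a library gave 627 to 2084. For these changes the cause was not tested. Between the sexes 2 genes of the table were called higher in mares (DESeq2 9, no filter 5, covariate 5, thinned 1, leaving out a library 1 to 5) and 2 in stallions (DESeq2 5, no filter 4, covariate 4). In the sex by season contrast DESeq2 called 1 gene larger in stallions, against 0, and that contrast could not be fitted without libraries under 1.05, since no T1 mare remained.

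With the replicate number as a block, all 150 genes were called higher in October with a median of 1.67, T0:T3 gave 578 genes lower, T1:T2 gave 2237 genes higher, and the sexes gave 0 genes higher in mares and 1 in stallions. The T1 and T2 libraries of numbers 4, 8, 9, 10 and 11 differed in sex, so the numbers were not taken to pair samples. Same-numbered libraries of different periods had correlations of their deviations from -0.346 to 0.524. In the longest run of numbers, 3 of 11 T1 libraries correlated best with the T2 library of their own number. The count was 4 of 8 between T1 and T3 and 1 of 8 between T2 and T3. When the choice was repeated, 92 of the 150 genes returned with a tolerance of 0.2 and 96 without libraries under 1.05, 113 to 147 under the other settings, and 116 to 149 when a library was left out. Low counts limit the levels in T1, where 65 of the 150 genes had under 6 counts in a library.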
